A study of Mus musculus with 18 samples.

Results

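The genes described here make the peptides that MHC class I molecules display and bring them to the class I molecule. They were chosen by name, with earlier results of these data known. The rows of the count table with the symbols Tap1, Tap2, Tapbp, Tapbpl, Psmb8, Psmb9, Psmb10, Psme1, Psme2 and Erap1 were taken, which gave 10 genes of 55450. Expression was measured by RNA sequencing of mRNA in 3 established mouse cancer cell lines, all labelled W.T. The 4T1 line comes from a breast carcinoma, MC38 from a colon adenocarcinoma, and LLC is Lewis lung carcinoma. Per line, 3 libraries came from cells kept with the solvent DMSO (control) and 3 from cells exposed to sildenafil citrate at 100 µM, a drug that blocks PDE5, an enzyme that breaks down cGMP. Exposure was 24 hours for the first pair of lines and 48 hours for LLC. 4T1 was grown in RPMI 1640 medium and the others in DMEM, so line and medium cannot be told apart between 4T1 and the other lines, nor can line and treatment time between LLC and the other lines. Nothing in the labels states that the 3 libraries of 1 group were grown separately, so a p-value here speaks only of the scatter among these libraries, possibly a technical one.

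Cells cut worn-out and faulty proteins into peptides with the proteasome. Its constitutive catalytic subunits PSMB6, PSMB7 and PSMB5 can be replaced by the inducible subunits PSMB9, PSMB10 and PSMB8, which gives the immunoproteasome, and the PA28 activator built from PSME1 and PSME2 can cap the barrel. The TAP1 and TAP2 transporter carries peptides into the endoplasmic reticulum, ERAP1 trims them there, and tapasin (Tapbp) and its relative TAPBPR (Tapbpl) load and edit the class I molecule. Interferons are known inducers of these genes, through IRF1 and, for many of them, the transactivator NLRC5.

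The 4T1 libraries held 41070021 to 61600646 counts each, those of MC38 held 29438187 to 36417399 and those of LLC held 26348654 to 32129771. Levels are CPM (read counts relative to library size) scaled by TMM factors over all 18 libraries. The predicted gene Gm26917 set the libraries apart: it stood between 153.4 and 265.4 CPM in 4T1 but between 5062 and 14800 CPM in MC38 and between 5851 and 29450 CPM in LLC. In MC38 it was lower in all 3 sildenafil libraries than in any control library. Among LLC controls replicate 3 stood apart: counts differed from replicates 1 and 2 by a chi-square per gene of 48.7 and 41.1, beside 10.6 between those replicates, and Gm26917 was at 9656 CPM there against 29450 and 20840. Of 7 epithelial markers all 7 reached 1 CPM in 4T1. In MC38 control libraries 3 of 7 did, with Epcam at 0. In LLC control libraries 1 of 7 did, Krt8 at 211.8 CPM, with Epcam, Cdh1, Krt18, Krt14 and Cldn4 at 0, so these defining markers are absent there although the line is labelled a carcinoma. The pan-leukocyte gene Ptprc averaged 0.102 CPM in 4T1 sildenafil libraries and less in the other groups.

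Of the 10 genes, 5 lie on chromosome 17 in the MHC region: Psmb9, Tap1, Psmb8 and Tap2 follow each other between 34181987 and 34216321, and Tapbp lies at 33915899 to 33929292 (GRCm38, mm10). Psme1 (55578123 to 55581529) and Psme2 (55587441 to 55591113) are neighbours on chromosome 14. Psmb10 is on chromosome 8 (105935735 to 105938444), Erap1 on chromosome 13 (74639568 to 74693201) and Tapbpl on chromosome 6 (125223933 to 125231860). Tap1 and Psmb9 run head to head. Their RefSeq start sites, at 34187556 and 34187330, are separated by 225 bases, while in the GENCODE gene models the genes overlap by 212 bases. Both genes were called higher in 4T1 and in MC38, where the call of Psmb9 was close to the threshold, and neither was called in LLC. The stretch they share is shown first, on the strand of Tap1, with the bases between the RefSeq start sites in capitals (GRCm38.p6, chr17:34187306-34187585, + strand).
Tap1 and Psmb9: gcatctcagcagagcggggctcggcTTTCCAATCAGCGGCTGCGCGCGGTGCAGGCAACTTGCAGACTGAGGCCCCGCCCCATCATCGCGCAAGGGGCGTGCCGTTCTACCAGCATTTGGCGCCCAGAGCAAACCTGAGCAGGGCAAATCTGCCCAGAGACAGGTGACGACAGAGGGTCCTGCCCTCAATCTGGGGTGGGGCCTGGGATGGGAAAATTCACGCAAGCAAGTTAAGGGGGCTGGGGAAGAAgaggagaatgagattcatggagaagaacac
The next stretches are shown because they hold a match to a motif of interferon signalling, in capitals: the interferon-stimulated response element (ISRE, GAAANNGAAA), which reads TTTCNNTTTC on the strand printed, in Psme1 (chr14:55578424-55578523, + strand) and Erap1 (chr13:74639783-74639882, + strand), and the interferon-gamma activated site (GAS, TTCNNNGAA) in Psmb8 (chr17:34198045-34198144, + strand).
Psme1: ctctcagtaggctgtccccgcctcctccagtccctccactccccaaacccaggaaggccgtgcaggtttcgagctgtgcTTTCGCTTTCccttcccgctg
Erap1: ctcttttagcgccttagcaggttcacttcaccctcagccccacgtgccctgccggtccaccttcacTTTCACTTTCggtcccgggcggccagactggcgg
Psmb8: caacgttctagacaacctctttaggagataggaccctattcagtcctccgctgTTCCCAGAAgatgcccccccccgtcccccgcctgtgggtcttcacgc
Both strands of the RefSeq window from 250 bases before to 50 after each start site were searched for these motifs, and no match overlapped another. A window was given for 8 of the 10 genes, the others being Tap2 and Tapbpl. The ISRE letters occurred in 3.44% of the 32851 windows of all genes and the GAS letters in 8.3%. The windows of Tap1, Psmb9, Psmb10, Psme2 and Tapbp held neither. A RefSeq start can lie inside the GENCODE gene model, as for Tapbp, at 33919478 in a model that begins at 33915899. The starts used for Psmb8, Psme1 and Erap1 also lie inside their gene models. Sequence around other start sites was not searched. A match describes letters and does not show that a factor binds there.

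In control cells LLC had the lowest level of all 10 genes. Psmb8, the inducible subunit that replaces PSMB5, stood at 51.01, 49.37 and 46.94 CPM in the 4T1 control libraries and at 46.14, 46.47 and 47.56 CPM in those of MC38. In the LLC control libraries it stood at 1.692, 1.505 and 1.831 CPM, from 41 to 57 counts. No LLC library came near the other lines. The log2 difference (LLC minus 4T1) was -4.78 ± 0.0729 (SE; edgeR adjusted p = 1.52e-15), a 27.5-fold lower level. Psmb9, the inducible partner of PSMB6 in turn, was 11.6-fold lower in LLC than in 4T1, at 0.440 to 0.575 CPM against 5.60 to 6.41 CPM, from 12 to 17 counts per LLC library. The third inducible subunit, Psmb10, was 3.69-fold lower (9.14 to 10.24 against 37.29 to 37.63 CPM).

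In the other roles LLC was lowest as well. Tapbpl, the peptide editor, was 5.63-fold lower in LLC than in 4T1. Tap1 was 4.47-fold lower, at 4.85 to 6.04 CPM in LLC against 26.31 to 27.12 CPM in 4T1. Tapbp, which holds class I molecules at the transporter, was 3.68-fold lower and Tap2, the second chain of the transporter, 3.35-fold. The trimming enzyme gene Erap1 was 1.87-fold lower. The smallest gaps were those of the PA28 genes, Psme1 at 1.51-fold and Psme2 at 1.27-fold. All 10 genes were called lower in LLC than in 4T1 and all 10 lower in LLC than in MC38, where 42.9% and 38.7% of the 15385 genes tested were called in that direction and 43.7% and 38.5% in the other. The median log2 difference of the 10 genes was -1.88 against 4T1 and -1.98 against MC38, beside medians over all genes of 0 and 0.0134. Calls are common between lines. The groups of all 10 genes did not overlap in either comparison, nor did those of 46.4% and 39.8% of all genes with LLC lower.

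Between MC38 and 4T1 controls the differences went both ways, and Tap2 had the largest of them. Tap2 was lower in MC38 by 0.87 on the log2 scale, at 38.76 to 41.72 CPM against 75.65 to 78.49 CPM (-0.87 ± 0.0451, adjusted p = 4.25e-10). Tap1, the other chain of the transporter, stood at -0.20 ± 0.0666, and the chains were not tested against each other. Erap1 was higher in MC38 (0.54 ± 0.0409) and so was Psme2 (0.45 ± 0.0448). Psme1, the partner of PSME2, was lower (-0.19 ± 0.0479). In all, 4 genes were called higher and 3 lower, beside 44.3% and 40.2% of all genes. Tapbp (0.12 ± 0.0461) and Psmb10 (0.15 ± 0.0539) were among those called higher, and both lost the call on leaving out most single libraries, with RLE size factors (adjusted p = 0.105 and 0.0691) and turned negative with library totals alone (-0.0586 and -0.029). Tap1 lost its call without MC38 control replicate 1 (adjusted p = 0.0631). Psmb8 (-0.0061 ± 0.048), Psmb9 (-0.11 ± 0.105) and Tapbpl (-0.17 ± 0.0838) were not called. Library totals alone moved the median of all genes from 0.045 to -0.1, and these 3 genes were then called lower in MC38. Tapbpl was also called lower with RLE size factors (-0.20, adjusted p = 0.0382). In the order of control levels, then, LLC was lowest for every gene, and the order of MC38 and 4T1 depended on the scaling for Tapbp and Psmb10. For Psmb9 and Tapbpl MC38 was the lower of the pair under either scaling and only the call changed. The difference of Psmb8 was near 0 and also turned sign with the stricter filter (0.0157).

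Levels of different genes can be set side by side only per length of transcript. The length of the principal transcript was used, and the order of the genes depends on that choice. Psmb8 has 1628 bases by this length and 3381 over all its exons, and Psmb10 has 1311 and 1705. In 4T1 control cells the PA28 genes were highest, Psme1 at 88.8 ± 3.22 and Psme2 at 80.01 ± 1.5 CPM per kilobase (SD, n = 3), followed by Tapbp at 52.5 ± 0.0808. Psmb8 (30.2 ± 1.26) and Psmb10 (28.6 ± 0.137) lay close together, and Tap2 (22.3 ± 0.443) lay above Tap1 (9.04 ± 0.136). Erap1 (8.60 ± 0.311) and Tapbpl (6.99 ± 0.496) were lower, and Psmb9 was lowest at 4.49 ± 0.309. In LLC control cells the PA28 genes were again highest, with Psme2 at 59.5 ± 2.42 and Psme1 at 55.5 ± 3.38. Psmb9 and Psmb8 fell to the other end there, at 0.361 ± 0.0557 and 1.03 ± 0.1 CPM per kilobase.

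**Figure D1:**
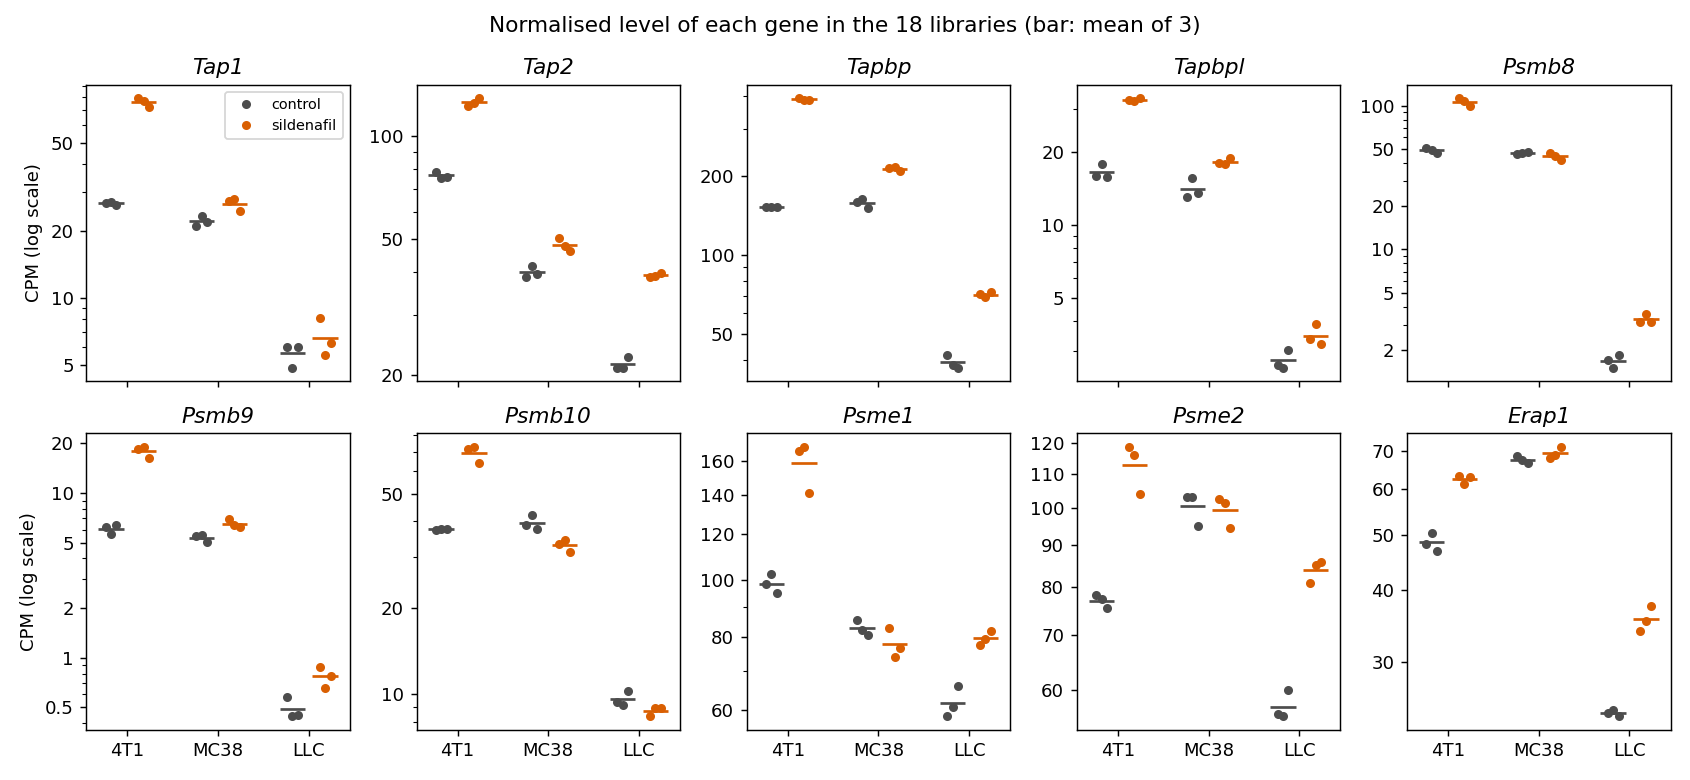
Level of each of the 10 genes in the 18 libraries, in CPM on a log axis that differs between panels. Points are libraries (grey control, orange sildenafil) and bars are means of 3. All orange points of 4T1 lie above the grey ones, and LLC controls lie below the controls of the other lines in every panel.

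In 4T1 cells all 10 genes rose with sildenafil at 24 hours, from the 1.27-fold rise of Erap1 to the 2.94-fold rise of Psmb9. Among all 13914 genes tested 33.5% were called higher and 33.3% lower. The median log2 fold change of the 10 genes was 0.92, that of all genes 0.0023, and control and sildenafil libraries did not overlap for any of the 10, nor did those of 37.2% of all genes with sildenafil higher. Tap1 went from 26.7, 27.12 and 26.31 CPM in the control libraries to 79.22, 77.49 and 72.16 CPM in the sildenafil libraries. Every sildenafil library lay far above every control library. The log2 fold change was 1.496 ± 0.0403 (adjusted p = 4.89e-12). Tap2 rose less, from 75.65 to 78.49 CPM in control libraries to 122.4 to 128.8 CPM (0.69 ± 0.0339).

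The loading genes rose in 4T1 as well. Tapbp stood at 152.0, 152.4 and 152.3 CPM in control and at 393.4, 387.3 and 388.7 CPM in sildenafil libraries, a log2 fold change of 1.34 ± 0.0266 with little spread within either group. Tapbpl went from 15.70 to 17.79 CPM up to 32.46 to 33.14 CPM (0.97 ± 0.0522). Of the inducible catalytic subunits, Psmb9 went from 6.188, 5.599 and 6.407 CPM to 18.38, 19.06 and 16.4 CPM (1.55 ± 0.0731). This gene, which shares its start region with Tap1, had the largest rise of the 10 in 4T1. Psmb8 rose by 1.09 ± 0.0452, to 99.33 to 112.2 CPM, and Psmb10 by 0.87 ± 0.0457, from 37.29 to 37.63 CPM up to 63.83 to 72.85 CPM.

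The PA28 and trimming genes moved least in 4T1. Psme1 rose from 95.24 to 102.4 CPM in control libraries to 140.8 to 169.1 CPM (0.67 ± 0.0624) and Psme2 from 75.39 to 78.21 CPM to 103.9 to 118.6 CPM (0.53 ± 0.0434). Sildenafil replicate 3 was the lowest of its group for Tap1, Psmb8, Psmb9, Psmb10, Psme1 and Psme2, but not for Tap2, Tapbp, Tapbpl or Erap1. Erap1 rose by 0.35 ± 0.0365, from 46.89 to 50.38 CPM to 61.42 to 63.21 CPM (adjusted p = 1.64e-06). Leaving out any 1 of the 6 libraries left all 10 calls in place. With Gm26917 entered as a covariate, which shared 0.967 of its variance with treatment in 4T1, the calls of Erap1 (0.21, adjusted p = 0.586) and Tap2 (0.54, adjusted p = 0.0678) were lost. Beside these rises, the summed level of 12 leukocyte markers went from 9.73 to 10.2 CPM in control to 37.5 to 38.4 CPM in sildenafil libraries. Cd68 made up most of it (9.565 to 9.998 and 37.17 to 38.16 CPM), Adgre1, Cd3e, Cd3d and Nkg7 were at 0 in all 6 libraries, and the part of other cells in the result was not tested. The sum of 6 fibroblast markers went from 26.5 to 29.1 CPM up to 51.4 to 59.6 CPM. Pdgfra made up nearly all of it (means 27.51 and 53.93 CPM), Col1a1, Col1a2, Dcn and Pdgfrb stayed under 1 CPM and Lum was at 0. In bulk RNA, fewer cells with a transcript and less of it per cell cannot be told apart.

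In MC38 cells, also treated for 24 hours, the transporter and loading genes rose by small amounts, Psmb10 fell, and the PA28 genes were not called. In total 5 of the 10 genes were called higher and 1 lower, beside 19.5% and 18.3% of the 13363 genes tested, with a median log2 fold change of 0.15 against 0.004 over all genes. Tapbp rose most, from 159.2, 162.8 and 150.8 CPM to 213.4, 215.9 and 207.7 CPM (0.43 ± 0.0336, adjusted p = 1.41e-07). Tapbpl went from 13.01, 15.5 and 13.46 CPM to 17.98, 17.72 and 18.9 CPM (0.38 ± 0.0693). The groups did not overlap for either gene, and for 6 of the 10 genes in all, beside 48.8% of all genes. Both chains of the transporter rose by a like amount, Tap2 by 0.26 ± 0.0461 (38.76 to 41.72 CPM up to 46.3 to 50.23 CPM) and Tap1 by 0.26 ± 0.0585 (21.17 to 23.3 CPM up to 24.58 to 27.89 CPM).

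The inducible subunits did not move together in MC38. Psmb10 fell from 38.86, 42.22 and 37.77 CPM to 33.35, 34.36 and 31.26 CPM (-0.27 ± 0.0531, adjusted p = 0.000905), with every sildenafil library below every control library. Psmb8 stood at -0.08 ± 0.0461 (adjusted p = 0.19). Psmb9 went from 5.03 to 5.59 CPM up to 6.22 to 6.92 CPM (0.27 ± 0.103), at an adjusted p of 0.0481 that is close to the threshold. This call was lost on leaving out any of the 6 libraries (adjusted p from 0.0571 to 0.159) and with DESeq2 (0.14). Psme1 stood at -0.09 ± 0.0424, Psme2 at -0.02 ± 0.0412 and Erap1 at 0.03 ± 0.0351, none of them called. Without sildenafil replicate 1 Psme1 was called lower (-0.14, adjusted p = 0.0156). With the replicate number as a block Psme1 was also called lower (-0.0919, adjusted p = 0.0275).

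Gm26917 moved with treatment in MC38 and shared 0.85 of its variance with it. With its level as a covariate 1 of the 10 genes, Tapbp, remained called and 0 were called lower. Tap1 then stood at 0.28 (adjusted p = 0.313), Tap2 at 0.21 (0.334), Tapbpl at 0.36 (0.28), Psmb10 at -0.36 (0.123) and Psmb9 at 0.02 (0.98). The leukocyte markers of MC38 summed to 6.12 to 6.53 CPM without the drug and to 9.93 to 10.8 CPM with it. Cd68 (2.516 to 3.281 and 4.567 to 4.778 CPM) and Csf1r (2.645 to 2.958 and 4.393 to 5.367 CPM) made up most of it. Adgre1, Cd3e and Nkg7 were at 0 in all 6 libraries. The fibroblast markers summed to 608 to 628 and 598 to 606 CPM, most of it Col1a2 (means 517.9 and 508.3 CPM). The part of these genes in the results was not tested.

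In LLC cells, treated for 48 hours, 6 of the 10 genes rose and 0 fell, beside 15.1% of the 13561 genes tested that were called higher and 12.2% lower. The median log2 fold change was 0.53, that of all genes -0.0062. The counts over all genes, 2046 higher and 1656 lower, rested on single libraries: they were 3079 and 2915 without LLC control replicate 3, 1339 and 960 without control replicate 1, 1490 and 997 without control replicate 2, 1226 and 773 without sildenafil replicate 2, and 1127 and 714 without sildenafil replicate 3. Tap2 went from 21.08, 21.07 and 22.67 CPM to 38.76, 39.08 and 39.86 CPM (0.84 ± 0.0528, adjusted p = 7.92e-06). Its partner Tap1 stood at 5.989, 4.845 and 6.037 CPM in control and at 8.078, 5.519 and 6.252 CPM in sildenafil libraries. The Tap1 groups overlapped and the gene was not called (0.21 ± 0.153, adjusted p = 0.319). Of the transporter's chains, then, only Tap2 was called in this line; whether the chains differed was not tested.

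Tapbp rose in LLC from 41.89, 38.1 and 37.35 CPM to 70.97, 69.27 and 72.15 CPM (0.84 ± 0.0558). Psmb8 went from 1.692, 1.505 and 1.831 CPM to 3.123, 3.565 and 3.126 CPM (0.94 ± 0.149, adjusted p = 0.00183), on 92 to 104 counts per sildenafil library. Even after this rise it lay far under the 46.94 CPM of the lowest 4T1 control library. Psmb9 stood at 0.63 ± 0.266 on 19 to 26 counts per sildenafil library (adjusted p = 0.104), and Tapbpl at 0.32 ± 0.14 (adjusted p = 0.118). Psmb10 stood at -0.15 ± 0.0842 (adjusted p = 0.201). The groups of these 3 genes did not overlap, and those of 9 of the 10 genes in all did not, beside 43.6% of all genes. None of these 3 genes was called in this fit, which does not show that their differences are 0. Tapbpl was called in the fit of all 18 libraries together (0.33, adjusted p = 0.0301).

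Both PA28 genes and the trimming gene rose in LLC. Psme2 went from 56.07, 55.68 and 59.89 CPM to 81.02, 85.14 and 85.73 CPM (0.53 ± 0.0485) and Psme1 from 58.57, 60.67 and 65.87 CPM to 77.39, 79.49 and 81.83 CPM (0.35 ± 0.0528). Erap1 went from 24.5, 24.78 and 24.15 CPM to 34.04, 35.44 and 37.57 CPM (0.53 ± 0.0547). All sildenafil libraries lay above all control libraries for these genes. Without LLC control replicate 3, the library that stood apart, the 6 calls held at 0.88 for Tap2, 0.81 for Tapbp, 1.01 for Psmb8, 0.57 for Psme2, 0.40 for Psme1 and 0.52 for Erap1, and all 10 genes were still called lower in LLC controls than in those of either other line. The 6 LLC calls held on leaving out any 1 library and with Gm26917 as a covariate, which shared 0.464 of its variance with treatment there. The leukocyte markers of LLC summed to 2.57 to 3.18 CPM without the drug and to 4.75 to 5.66 CPM with it. Lyz2 (1.431 to 1.523 and 2.94 to 3.668 CPM) and Cd68 (1.138 to 1.59 and 1.222 to 1.919 CPM) made up most of it. Cd3e and Nkg7 were at 0 in all 6 libraries. The fibroblast markers summed to 67.6 to 76.6 and 144 to 156 CPM, most of it Pdgfra (means 59.85 and 127.1 CPM). Their part in these results was not tested.

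**Figure D2:**
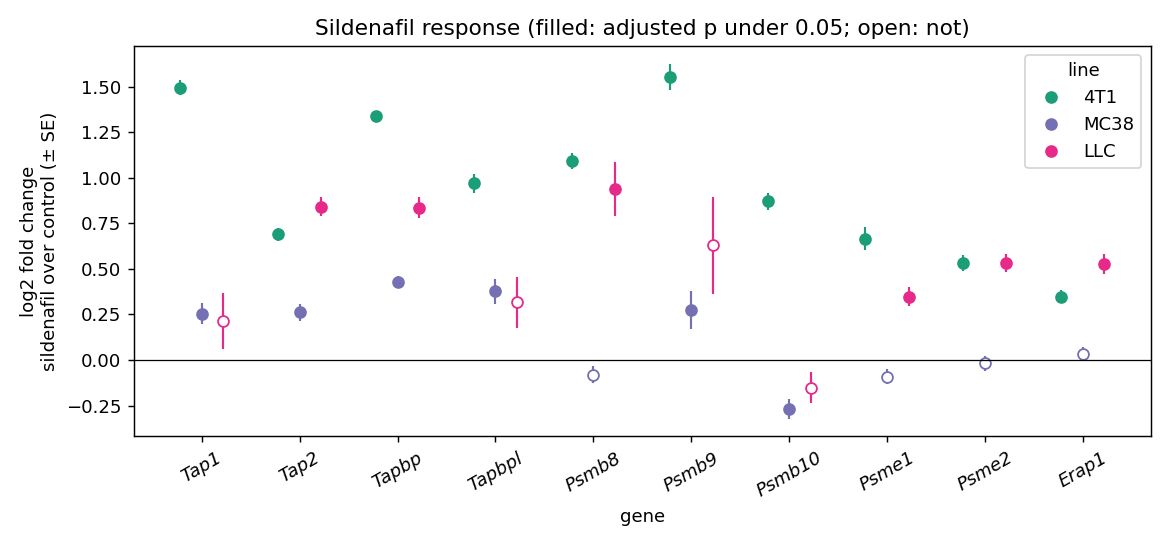
Log2 fold change of sildenafil over control for each gene in each line, with its SE; filled points had an adjusted p under 0.05 and open points did not. The 10 points of 4T1 are all filled and above 0, and Psmb10 is below 0 in MC38 and LLC.

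Whether the lines responded differently was tested as the difference of the log2 fold changes. The log2 fold change of all 10 genes was lower in MC38 than in 4T1, by 0.33 to 1.29, where 16.7% of the 16040 genes tested were called in that direction and 17.9% in the other. Psmb9 (-1.29 ± 0.129), Tap1 (-1.26 ± 0.109), Psmb8 (-1.19 ± 0.0724) and Psmb10 (-1.15 ± 0.0775) differed most, and Erap1 least (-0.33 ± 0.0564, adjusted p = 6.77e-05). Both lines were treated for 24 hours but grown in different media, which cannot be told apart from the lines. In the comparison of LLC with 4T1 both the treatment times and the media differ and cannot be told apart from the lines. There the log2 fold change of 6 of the 10 genes was lower in LLC, beside 20.2% of all genes, led by Tap1 (-1.29 ± 0.136) and Psmb10 (-1.02 ± 0.0922).

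Erap1 was called as rising more in LLC than in 4T1 (0.18 ± 0.0595, adjusted p = 0.0187), beside 21.8% of all genes. This call was lost without 4T1 control replicate 2 (adjusted p = 0.0592) or LLC sildenafil replicate 3 (0.0701) and with the replicate block (0.0667). Psme2 differed by 0.00030 ± 0.0684 between LLC and 4T1, Tap2 by 0.15 ± 0.0607 (adjusted p = 0.0503) and Psmb8 by -0.16 ± 0.134 (adjusted p = 0.408). The call of Psmb9 (-0.92 ± 0.235) was lost without LLC control replicate 1 (-0.77, adjusted p = 0.0636). Tap2 was called as rising more in LLC without 4T1 sildenafil replicate 3 (0.19, adjusted p = 0.0269) or without LLC control replicate 3 (0.19, adjusted p = 0.015). Between LLC and MC38, 6 genes had a higher log2 fold change in LLC, beside 12.6% of all genes, and 0 a lower one, beside 9.68%. They were Psmb8 (1.03 ± 0.132), Tap2 (0.59 ± 0.0633), Psme2 (0.57 ± 0.0707), Erap1 (0.51 ± 0.0601), Psme1 (0.45 ± 0.0869) and Tapbp (0.43 ± 0.0568). Tap1 differed by -0.03 ± 0.141 and Tapbpl by -0.05 ± 0.137, and neither was called. These comparisons of lines share libraries with each other and are given side by side only.

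Each inducible subunit takes the place of 1 constitutive subunit, so the share of the inducible transcript within a pair was computed per library from counts per kilobase of transcript. Such a share does not depend on scaling between libraries. In 4T1 the Psmb8 share of Psmb8 plus Psmb5 went from 19.6 ± 1.28% in control to 37.9 ± 0.463% in sildenafil libraries (SD, n = 3), the Psmb10 share of Psmb10 plus Psmb7 from 15.6 ± 0.598% to 28.3 ± 0.572%, and the Psmb9 share of Psmb9 plus Psmb6 from 2.60 ± 0.191% to 8.06 ± 0.204%. In none of these pairs did the groups overlap. An exact two-sided permutation test gave p = 0.1 for each, the smallest that 3 against 3 libraries can give, and 0.129 adjusted over the 9 tests.

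The constitutive partners fell in 4T1, by 0.23 ± 0.0404 for Psmb5, 0.17 ± 0.0368 for Psmb6 and 0.23 ± 0.0449 for Psmb7 on the log2 scale. In MC38 the Psmb8 share was 16.2 ± 0.88% in control and 16.4 ± 0.249% in sildenafil libraries, with overlap (exact permutation p = 0.7). The Psmb10 share there was 13.4 ± 0.864% and 12.9 ± 0.663%, with overlap (exact permutation p = 0.5), although Psmb10 itself fell, since Psmb7 fell too (-0.20 ± 0.0322). The Psmb9 share in MC38 went from 1.15 ± 0.0485% to 1.46 ± 0.0505% without overlap. In LLC the Psmb8 share went from 1.10 ± 0.032% to 1.99 ± 0.0813% and the Psmb9 share from 0.174 ± 0.0303% to 0.265 ± 0.0439%, while the Psmb10 share went the other way, from 4.45 ± 0.158% to 4.08 ± 0.098%. The groups did not overlap in these 3 pairs, and the exact permutation p was 0.1 in each. None of Psmb5 (0.07 ± 0.0583), Psmb6 (0.02 ± 0.0537) and Psmb7 (-0.02 ± 0.0544) was called in LLC. The size of a share depends on the transcript length used.

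**Figure D3:**
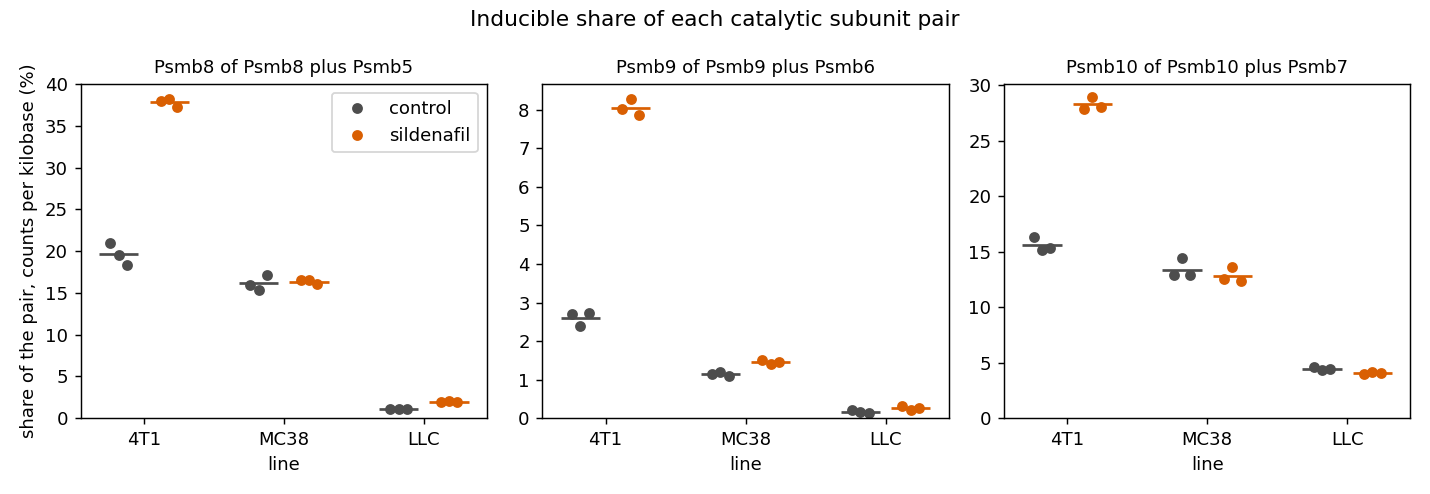
Share of the inducible transcript in each pair of catalytic subunits, in percent of counts per kilobase, per library; grey control, orange sildenafil, bars are means of 3, and the axes start at 0 and differ between panels. In 4T1 the orange points lie apart from the grey ones in all 3 pairs, and LLC lies near 0 for Psmb8 and Psmb9.

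Other genes of the pathway, taken from lists chosen with earlier results of these data known, give the rest of the proteasome and its surroundings beside the 10 genes. In 4T1, 11 of the 14 constitutive 20S core genes fell and 1 rose (median -0.19), beside 33.3% and 33.5% of all genes. The core gene that rose was Psma5 (0.26 ± 0.0366), while Psma3 (-0.34 ± 0.0398) and Psma6 (-0.31 ± 0.0403) were among those that fell. Of 18 genes of the 19S cap, which unfolds proteins for the core, 16 fell and 0 rose (median -0.30), among them the ubiquitin receptor gene Adrm1 (-0.53 ± 0.0327). Psme3, which encodes another proteasome activator, fell from 237.5 to 138.8 CPM on average (-0.79 ± 0.0298) while Psme1 and Psme2 rose. It is 1 of 7 genes for assembly factors and other activators, of which 4 fell and 1 rose in 4T1, Psmg1 (-0.62 ± 0.0446) and Psmg3 (-0.71 ± 0.0554) among those that fell.

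The same lists in MC38 gave 7 of 14 core genes and 11 of 18 cap genes that fell and 0 that rose (medians -0.10 and -0.09), beside 18.3% and 19.5% of all genes, among them Psmd12 (-0.17 ± 0.0286). In LLC 1 of 14 core genes rose, Psma1 (0.52 ± 0.0627), and 3 of 18 cap genes rose and 1 fell, which is near or below the shares over all genes (15.1% and 12.2%). Of the peptidases that shorten or destroy peptides outside the proteasome, 3 of 6 fell and 2 rose in 4T1, which is near the shares over all genes (33.3% and 33.5%). In MC38 4 of 6 fell, beside 18.3% of all genes, and in LLC 3 of 6, beside 12.2%. Lap3, a leucine aminopeptidase gene, fell in all 3 lines, by 0.51 ± 0.032 in 4T1, 0.25 ± 0.0325 in MC38 and 0.32 ± 0.0442 in LLC. Thop1, which encodes the peptide-cleaving thimet oligopeptidase, fell in 4T1 (-0.73 ± 0.0418) and MC38 (-0.35 ± 0.036) and stood at -0.08 ± 0.0504 in LLC.

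Of 4 general chaperone genes of the endoplasmic reticulum, 1 rose and 1 fell in 4T1, 3 rose in MC38 and 1 rose in LLC. Beside these, 33.5%, 19.5% and 15.1% of all genes were called higher, and 33.3% were called lower in 4T1. Calr, whose product also serves class I loading, rose in all 3 lines, by 0.18 ± 0.0286 in 4T1, 0.18 ± 0.0325 in MC38 and 0.31 ± 0.0723 in LLC. Hspa5 fell in 4T1 (-0.56 ± 0.0306) and rose in MC38 (0.22 ± 0.0296), where Canx rose as well (0.13 ± 0.0279). The class I chains themselves, H2-K1, H2-D1 and B2m, rose in 4T1 (3 of 3, by 0.66 ± 0.0344, 0.45 ± 0.0307 and 0.69 ± 0.0378) and in MC38 (3 of 3, by 0.48 ± 0.0367, 0.16 ± 0.0357 and 0.12 ± 0.0349). Of all genes, 33.5% and 19.5% were called higher in these lines. In LLC 1 of 3 rose, H2-D1 (0.35 ± 0.059), beside 15.1% of all genes. H2-K1, at 7.52 CPM in control, stood at 0.14 ± 0.0917 there. B2m averaged 163.9 CPM in LLC control and 178.0 CPM in sildenafil libraries and was not called either.

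Regulators of these genes rose in 10 of 12 cases in 4T1, 8 of 12 in MC38 with 1 that fell, and 5 of 12 in LLC, beside 33.5%, 19.5% and 15.1% of all genes. Irf1, which encodes an interferon-induced transcription factor, went from 68.94 to 116.8 CPM on average in 4T1 (0.74 ± 0.0317) and from 15.27 to 29.67 CPM in LLC (0.94 ± 0.0787), but by 0.09 ± 0.0343 in MC38 (adjusted p = 0.0463). Irf1 rose least in MC38, the line with the smallest median change of the 10 genes, a description over 3 lines with no test. Nlrc5, the class I transactivator, had another order: it rose by 0.76 ± 0.0415 in 4T1 and 0.60 ± 0.0669 in MC38 and stood at 0.10 ± 0.114 in LLC. Irf9, which encodes a factor of the type I interferon response, rose by 1.44 ± 0.0802 in 4T1 and 0.37 ± 0.0747 in MC38 and stood at 0.11 ± 0.166 in LLC. Of 7 MHC class II genes 2 could be tested in each line, and in 4T1 both rose, Cd74 by 0.85 ± 0.053 and H2-DMa by 0.37 ± 0.0829. In MC38 1 of 2 rose, H2-DMb1 (0.46 ± 0.0951), and in LLC 0 of 2, beside 33.5%, 19.5% and 15.1% of all genes in the 3 lines. H2-Aa, H2-Ab1 and H2-Eb1, which encode class II chains, reached at most 0.144 CPM in any library.

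**Figure D4:**
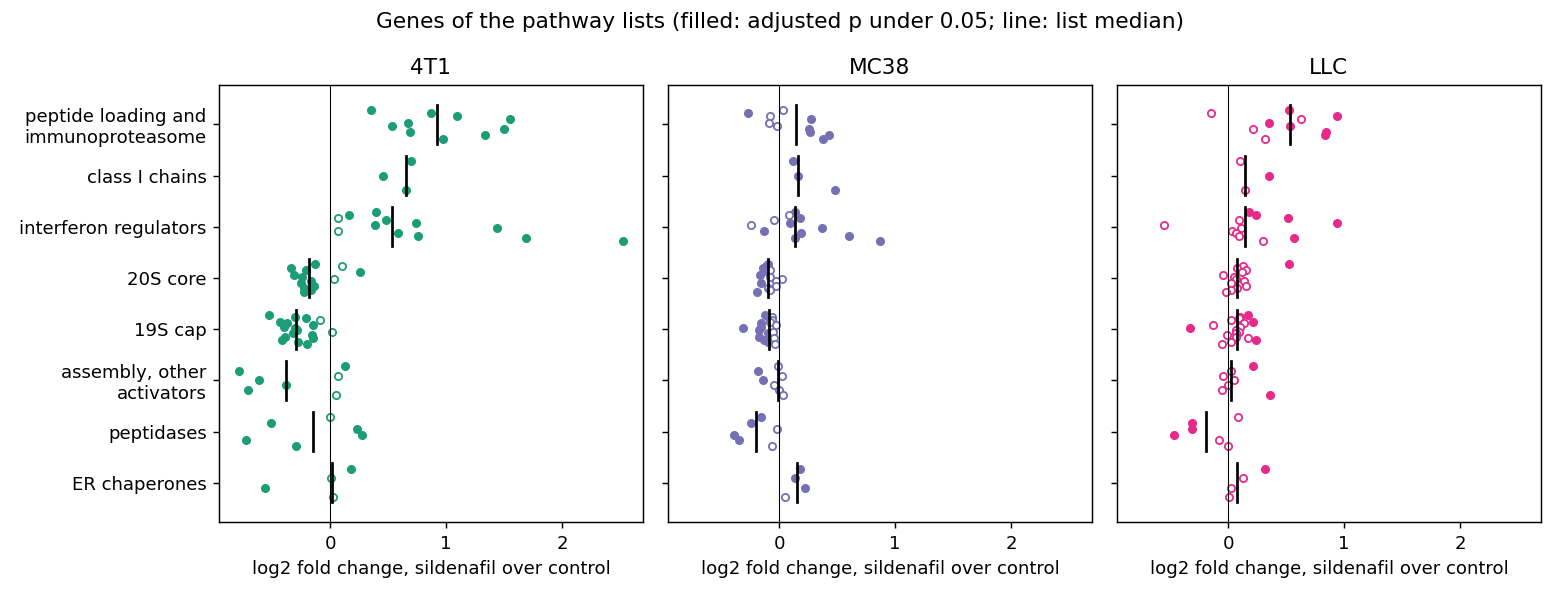
Log2 fold change of sildenafil over control for the genes of each pathway list in the 3 lines, on 1 shared axis; filled points had an adjusted p under 0.05 and vertical lines are list medians. In 4T1 the 10 genes (top row, median 0.92) lie to the right of 0 and most of the 20S core (median -0.19) and 19S cap (median -0.30) genes to the left.

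Over the 18 libraries the log2 CPM values of the 10 genes correlated with each other at Pearson's r from 0.532 (Psme1 with Erap1) to 0.992 (Tapbpl with Psmb9). These values are descriptions: the libraries fall into 3 lines, and the difference of LLC from the other lines enters each of them. Tap1 and Psmb9, which share their start region, stood at r = 0.987. Tapbpl and Psmb8, on different chromosomes, stood at 0.988, so such a value is not particular to the shared start. Among 10617 genes with a mean of at least 5 CPM, those most like the average of the 10 standardised genes were Ddx58 (r = 0.996), Parp14 (0.993), Gbp2 (0.991), Zbtb42 (0.99) and Chpt1 (0.989). Ddx58, which encodes the RNA sensor RIG-I, had means without and with the drug of 46.16 and 126.3 CPM in 4T1, 46.16 and 44.09 CPM in MC38, and 8.03 and 12.66 CPM in LLC. For single genes the closest were Parp14 for Tap1, Ddr1 for Tap2, Ifnar1 for Tapbp, Capg for Tapbpl, Rin2 for Psmb8, Tlr3 for Psmb9, Cnp for Psmb10, Arpc5 for Psme1, Wsb2 for Psme2 and Tax1bp3 for Erap1, with r from 0.965 (Wsb2) to 0.997 (Rin2).

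Some counts could hold reads of another gene. Psme2 has a near-identical copy, Psme2b, to which RSEM gave 6.37% to 11.3% of the reads of the pair, and the Psme2 count was not whole in all 18 libraries. Means of Psme2b without and with the drug were 8.72 and 14 CPM in 4T1, 10.35 and 10.33 CPM in MC38, and 4.63 and 7.56 CPM in LLC, so both copies are given as uncertain. In the GENCODE gene models the exons of Tap1 and Psmb9 overlap by 212 bases on opposite strands. Erap1 shares up to 834 exon bases with Cast, on the opposite strand, which had a mean of 89.5 CPM in the 4T1 controls and 141.3 CPM after sildenafil. Cast stood at 231.3 to 237.5 CPM in MC38 controls and at 101.6 to 106.0 CPM in LLC controls. Erap1 was also higher in MC38 than in 4T1 controls, and the part of Cast reads in that difference was not tested. The library kit keeps strand, but no source used here gives the strand setting of the counting, and reads of such partners may not have been told apart. Tapbp shares 88 exon bases with Zbtb22 on the same strand, which averaged 52.3 and 59.9 CPM in 4T1. The antisense gene Gm20496, across Psmb8 and Tap2, had at most 1 count in a library.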

How the data were processed

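The authors deposited gene-level expected counts. The submitters' processing notes name bcl2fastq 2.17, cutadapt 1.18, STAR 2.7.0f, RSEM 1.3.1 and mm10. No source used here gives the annotation or strand setting. All 55450 identifiers matched GENCODE M21 (GRCm38), which gave positions and principal transcript lengths; promoter windows are RefSeq's (GRCm38.p6).

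Expected counts, as deposited by the authors, were rounded. edgeR 4.0.16 in R 4.3.3 (TMM, default filter, robust quasi-likelihood F test) was fitted to all genes: the 6 libraries of a line for its response, the 9 controls for baselines, and all 18 for differences of response. P-values were adjusted by Benjamini-Hochberg over all genes, threshold 0.05. SE is the log2 fold change over the square root of F. Printed CPM use TMM over 18 libraries and can differ slightly from a fit's scale. Shares were compared by exact permutation in scipy 1.17.1. The fits were also run on simulated counts with few changed genes, which does not test them where most genes are called. The 10 genes, the lists and the alternatives (limma 3.58.1, DESeq2 1.42.0 and others) were chosen with earlier results of these data known. Text names all 10 genes, fixed pathway genes (1 is not reported here), up to 3 called genes per list and line with the smallest adjusted p, and the closest patterns. Overlapping genes, Gm26917 and single markers were named after their values were seen. Counts limit precision most for Psmb9 in LLC.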

Additional observations from a re-analysis of the deposited data

Results flagged for a closer look

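Differences of the sildenafil response between lines that passed the test (edgeR, all 18 libraries, adjusted p under 0.05) are listed here for a closer look, as log2 differences of the first line minus the second. For MC38 minus 4T1, all 10 genes were called: Psmb9 at -1.29, Tap1 at -1.26, Psmb8 at -1.19, Psmb10 at -1.15, Tapbp at -0.93, Psme1 at -0.77, Tapbpl at -0.61, Psme2 at -0.57, Tap2 at -0.44 and Erap1 at -0.33. For LLC minus 4T1 the calls were Tap1 at -1.29, Psmb10 at -1.02, Psmb9 at -0.92, Tapbpl at -0.66, Tapbp at -0.50, Psme1 at -0.32 and Erap1 at 0.18. For LLC minus MC38 they were Psmb8 at 1.03, Tap2 at 0.59, Psme2 at 0.57, Erap1 at 0.51, Psme1 at 0.45 and Tapbp at 0.43. Psmb10 is the gene whose change turned sign between lines among called values, 0.87 in 4T1 and -0.27 in MC38. The test for a single library far from its group was not run, since it needs groups of 4 or more.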

How the results depend on the processing

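All 10 rises in 4T1, the 10 lower levels of LLC against either line and the 10 lower responses of MC38 than of 4T1 kept direction and call under every alternative run, except Erap1 and Tap2 in 4T1 with Gm26917 as a covariate. The 6 LLC calls held in each fit that tested the gene. With at least 5 CPM required in 3 libraries, the filter removed Psmb8, Psmb9 and Tapbpl from the LLC fit. Their LLC response was therefore not tested under that setting. In MC38 the covariate left 1 gene called higher and 0 lower, and leaving out 1 library gave 4 higher and 1 to 2 lower. Between MC38 and 4T1 controls 2 genes in place of 4 were called higher with RLE, library totals, no filter, DESeq2 or all 18 libraries, and 2 to 4 without 1 library. Library totals called 6 lower in place of 3 and turned Tapbp (-0.0586) and Psmb10 (-0.029). For LLC minus 4T1 responses 0 genes in place of 1 were called higher with library totals, no filter, the stricter filter or the replicate block, and 0 to 2 without 1 library. Values near 0 changed sign: Erap1 in MC38 (-0.0024 with the covariate), Psme2 in MC38 (0.0065 with library totals, -0.0552 to 0.0217 without 1 library), and Psmb8 between MC38 and 4T1 controls (0.0157 with the stricter filter, -0.0413 to 0.0192 without 1 library). Psme2 for LLC minus 4T1 stood at -0.0091 with RLE, -0.0583 with library totals, -0.0472 with the stricter filter, -0.0094 with DESeq2, -0.0029 with 12 libraries and -0.0008 with the replicate block, and from -0.0398 to 0.0398 without 1 library. Without 1 library Tap1 ran from -0.1947 to 0.0812 and Tapbpl from -0.1276 to 0.0368 for LLC minus MC38, and the change of the Psmb8 share in MC38 from -0.209 to 0.66 points. Without division by length, and with union exon length (added after seeing the data), the Psmb8 share changed by 21.8 and 12.2 points in 4T1 and 1.57 and 0.436 in LLC. Without division the Psmb9 share changed by 8.6 points in 4T1, 0.521 in MC38 and 0.154 in LLC, and the Psmb10 share by 13.5 in 4T1. With union length Psmb9 in 4T1 gave 4.8, Psmb10 in 4T1 17.7 and Psmb10 in LLC -0.767 points. Same-numbered libraries share only a number: their deviations correlated at -0.13, 0.153 and -0.0251 in 4T1, 0.0311, 0.0884 and 0.445 in MC38, and 0.271, -0.327 and 0.0632 in LLC. With that number as a replicate block 2 genes in place of 1 were called lower in MC38. Other causes of these changes were not tested. The LLC counts of Psmb9 limit what could be resolved.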
